A study of Mus musculus with 24 samples.

Results

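The response of NIK X mut dermal fibroblasts to the cytokine TWEAK was set against the response of NIK knockout dermal fibroblasts after 24 h of treatment. The quantity measured was a difference of changes, the log2 change at 24 h over untreated cells in NIK X mut minus the same log2 change in the knockout. It rested on 8 of the 24 libraries of the series, all 8 chosen by genotype and time from the sample labels. They were 2 libraries of NIK X mut cells (MUT) at 24 h, 2 of untreated MUT cells, 2 of NIK knockout cells (KO) at 24 h and 2 of untreated KO cells. Cells were primary skin fibroblasts of mice at the same passage, and TWEAK was given at 100 ng/ml. The 8 libraries of wild-type littermates (WT) at 24 h and untreated, 4 each, are cited where their values bear on a MUT or KO result. The labels do not say what the X mutation changes in NIK, nor whether the 2 libraries of a group came from separate mice, so p-values measure the spread between these samples only. There were no untreated libraries at 24 h, so the effect of TWEAK and of 24 h in culture cannot be told apart within a genotype.

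Signalling through the noncanonical NF-kB pathway begins with the kinase NIK, encoded by Map3k14. In resting cells a complex of TRAF2, TRAF3 and cIAP proteins keeps NIK protein scarce. Binding of TWEAK to its receptor Fn14 draws that complex away, NIK builds up and phosphorylates IKK1, and IKK1 then phosphorylates p100, the product of Nfkb2, so that it is processed to p52 and enters the nucleus with RelB. TWEAK also acts through the canonical arm, in which IKK2 marks IkB inhibitors for destruction and frees RelA. Nfkb2, Relb, several IkB genes and many chemokine genes are themselves transcribed under NF-kB.

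The genes whose promoters are shown here were NF-kB components or targets that rose in MUT cells, and the capitals mark matches to the kB consensus, the degenerate motif bound by NF-kB dimers, on either strand. The windows run from 250 bases before to 50 bases after a RefSeq start site on GRCm38.p6, read in the direction of the gene, and matches that overlap run together. They were chosen because the tables used hold a window with a match for each of them.
Nfkb2 promoter, chr19:46304487-46304786, plus strand: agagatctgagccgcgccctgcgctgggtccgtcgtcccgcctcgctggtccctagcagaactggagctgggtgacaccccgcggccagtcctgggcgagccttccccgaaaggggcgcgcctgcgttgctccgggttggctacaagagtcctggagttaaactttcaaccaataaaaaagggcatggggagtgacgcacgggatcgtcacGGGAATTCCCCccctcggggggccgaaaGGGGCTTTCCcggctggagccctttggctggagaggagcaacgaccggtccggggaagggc
Traf3 promoter, chr12:111166120-111166419, plus strand: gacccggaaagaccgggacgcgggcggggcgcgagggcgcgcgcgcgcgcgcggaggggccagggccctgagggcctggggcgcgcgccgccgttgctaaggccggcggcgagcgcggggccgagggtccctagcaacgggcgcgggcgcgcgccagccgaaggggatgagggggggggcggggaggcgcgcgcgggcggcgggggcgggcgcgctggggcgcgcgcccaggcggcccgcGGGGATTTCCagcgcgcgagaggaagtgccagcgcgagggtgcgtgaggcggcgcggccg
Nfkbie promoter, chr17:45555450-45555749, plus strand: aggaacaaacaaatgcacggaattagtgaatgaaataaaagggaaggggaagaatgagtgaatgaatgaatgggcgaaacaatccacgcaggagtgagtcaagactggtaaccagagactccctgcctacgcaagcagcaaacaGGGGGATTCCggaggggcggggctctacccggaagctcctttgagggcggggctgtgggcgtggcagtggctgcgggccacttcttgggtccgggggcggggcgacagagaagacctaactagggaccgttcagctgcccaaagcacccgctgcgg
Tnip1 promoter, chr11:54962891-54963190, minus strand: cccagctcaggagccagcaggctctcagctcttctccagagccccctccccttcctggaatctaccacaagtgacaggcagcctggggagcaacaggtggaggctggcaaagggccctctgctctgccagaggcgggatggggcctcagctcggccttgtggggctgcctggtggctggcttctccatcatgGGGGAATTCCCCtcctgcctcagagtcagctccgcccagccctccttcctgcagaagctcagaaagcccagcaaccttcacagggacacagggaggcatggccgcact
Cxcl10 promoter, chr5:92348840-92349139, minus strand: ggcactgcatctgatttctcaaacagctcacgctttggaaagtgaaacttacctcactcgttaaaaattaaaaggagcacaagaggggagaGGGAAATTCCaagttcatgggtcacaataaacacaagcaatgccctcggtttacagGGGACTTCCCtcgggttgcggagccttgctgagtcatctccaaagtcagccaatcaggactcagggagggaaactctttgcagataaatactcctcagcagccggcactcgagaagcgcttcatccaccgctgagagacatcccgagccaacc
The Nfkb2 window held 3 matches, starting 39, 38 and 11 bases before the start site, and the Tnip1 window held 3 overlapping ones. Cxcl10 had 2 matches, starting 159 and 103 bases before its start site, Nfkbie had 1 at 106 bases and Traf3 had 1 at 10 bases before it. The table holds 3 windows for Nfkb2, and the other 2, not printed, held 2 matches and 1. Of all 32851 windows of the same length, 1480 (4.51%) held a match. The windows of Birc3, Traf1, Vegfc, Tapbp, Psmb10, Icam1 and Nab2 held none. Counted by gene over all its windows, a match was found for 11 of 36 genes that rose in MUT and had a window (30.6%), 2 of 17 that fell (11.8%) and 566 of 8792 genes tested (6.44%), which is a description without a test. These are letters in a window, not sites shown to be bound.

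The 8 libraries held 1379946 to 4342981 UMIs each, with 12860 to 13338 genes detected, and levels are given as CPM, the UMI count scaled to a common library size after TMM normalisation. Map3k14 was at 44.8 and 55.6 CPM in MUT cells at 24 h and 28.0 and 25.5 CPM in untreated MUT cells, against 0.603 and 0.50 CPM in KO cells at 24 h and 0.431 and 0 CPM in untreated KO cells. The KO libraries together held 3 Map3k14 UMIs and the MUT libraries 489, a ratio of 89.9 for MUT over KO (95% exact interval 30.6 to 437, counting error only). No KO library came near a MUT library, and because KO is near 0 the gene's own difference of changes has no interpretable size. Summed dermal fibroblast markers were between 20631 and 24238 CPM in the 8 libraries. Markers of keratinocytes, endothelium, leukocytes, adipocytes and melanocyte or Schwann cells summed to between 5.43 and 51.2 CPM, and those of skeletal muscle and pericytes to between 115 and 270 CPM (269.5 at most). Further properties differed between the MUT and KO libraries, and their part in the results was not tested. Every MUT library was deeper, at 2902753 to 4342981 UMIs, than every KO library, at 1379946 to 2297810 UMIs. The 4 MUT libraries held 48 to 88 Y-linked UMIs and 0 Xist UMIs, whereas the 4 KO libraries held 0 to 2 Y-linked UMIs and 8 to 27 Xist UMIs, so genotype and sex cannot be told apart. On the first principal component of all 24 libraries (30.9% of the variance), MUT lay with WT replicates 3 and 4 at 4.47 to 28.7 and KO with WT replicates 1 and 2 at -29.4 to -6.11. A difference of changes is therefore also given relative to WT of the same set, the WT libraries on the same side. This includes each printed difference of a named gene that it moved by over 1.5 times or turned in sign. Medians over gene lists are given in that way only in part, and others moved too. Summed cell cycle genes were 4125 and 4258 CPM in the MUT libraries at 24 h and 2903 and 2972 CPM in untreated MUT, against 1259 and 1318 CPM in KO at 24 h and 1110.0 and 1279 CPM in untreated KO. In WT they ranged from 1160 to 3363 CPM untreated and from 2058 to 4900 CPM at 24 h, so the level also varied widely within WT.

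No single gene passed the test of the difference of changes with 2 libraries a group. The genes raised in WT at 24 h had a median log2 change of 0.63 in MUT and 0.22 in KO. Nfkb2, Birc3, Nfkbie, Ccl5, Cxcl10 and Mmp9 were among the genes that rose in MUT at 24 h. Of 11337 genes, 0 were higher and 0 lower (0% each; edgeR quasi-likelihood F test, Benjamini-Hochberg adjusted p under 0.05). An unadjusted p under 0.05 was reached by 368 genes with a positive difference (3.25%) and 445 with a negative one (3.93%), and DESeq2 called 3 and 2. The smallest adjusted p was 0.207, shared by Nfkb2, Nab2 and the pseudogene model Gm13835. The median SE of a log2 difference was 0.45 over all genes, so for a typical gene only differences of several such SE could have passed. Within genotypes, 56 genes rose (0.494%) and 22 fell (0.194%) in MUT cells at 24 h, while 0 genes passed in KO cells (0% each way; smallest adjusted p = 0.0545, 382 genes at an unadjusted p under 0.05, and 3 genes by DESeq2). Passing in MUT and not in KO does not by itself show a difference between them. The MUT counts depended on single libraries, being 24 and 1 without MUT 24 h replicate 1, 19 and 1 without replicate 2, 18 and 3 without untreated MUT replicate 1, and 14 and 1 without untreated replicate 2.

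The 56 genes that rose in MUT had a median log2 change of 1.81 in MUT and 0.49 in KO, and their median difference was 1.12. The difference was positive for 55 of the 56, and 45 of the 56 had a positive change in KO too. The 22 genes that fell in MUT had a median change of -1.31 in MUT and 0.10 in KO, with a median difference of -1.47, negative for all 22. These genes were chosen by their MUT change, which is part of the difference, so the sizes are a description. In the same fit, which takes its estimate of spread from WT libraries too, 51 of the 56 were also raised in WT at 24 h (median 1.82), and 11 of the 22 were lowered there (median -0.65), where 3.68% and 3.19% of all genes were raised and lowered. The scatter of MUT change against KO change shows both groups.

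**Figure D1:**
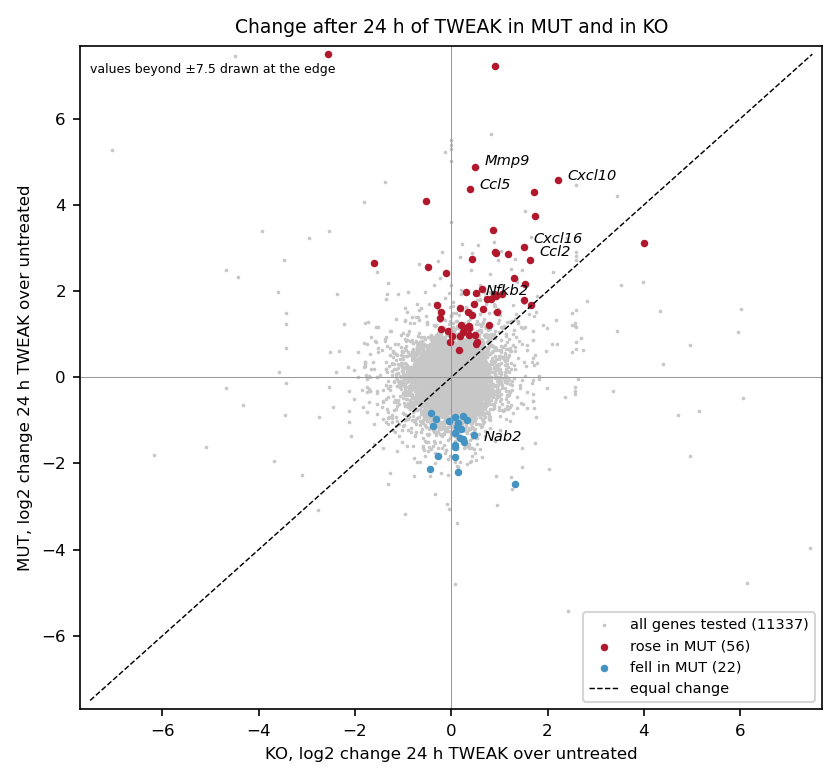
Log2 change at 24 h of TWEAK over untreated cells in MUT (vertical axis) and KO (horizontal axis) for the 11337 genes tested, with the 56 genes that rose and the 22 that fell in MUT in colour and equal change as a dashed line. The genes that rose in MUT lie above the dashed line but for 1, at a median of 1.81 in MUT and 0.49 in KO, and those that fell lie below it.

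Genes were also chosen by their change in WT. That contrast does not include the MUT and KO libraries, although the fit shares its gene filter, normalisation and estimate of spread with them. The 417 genes raised in WT at 24 h had a median log2 change of 0.63 in MUT and 0.22 in KO, against 1.12 in WT. The 362 genes lowered in WT had medians of -0.53 in MUT and -0.11 in KO, against -1.0 in WT. Both MUT libraries stood apart from both KO libraries on these medians: against the mean of their untreated libraries, the raised genes were at 0.61 and 0.62 in the MUT libraries and at 0.22 and 0.17 in the KO libraries, and the lowered genes at -0.54 and -0.50 in MUT and at -0.12 and -0.07 in KO. Of the raised genes, 334 (80.1%) had a positive difference of changes and 72 (17.3%) reached an unadjusted p under 0.05 with a positive sign, compared with 51.5% and 3.25% of all genes. Of the lowered genes, 306 (84.5%) had a negative difference and 45 (12.4%) reached that p with a negative sign, compared with 48.5% and 3.93% of all genes. In MUT 51 of the raised genes rose and 11 of the lowered genes fell, where 0.494% and 0.194% of all genes did. In KO 0 passed in either list. With genes chosen in either pair of WT libraries, the median difference was 0.48 for 490 genes raised in WT replicates 1 and 2 and 0.55 for 290 genes raised in replicates 3 and 4, and -0.42 and -0.48 for the 383 and 227 genes lowered in them. When the WT libraries were fitted alone, an alternative added after seeing the data that keeps MUT and KO out of the choice, 200 genes were raised and 156 lowered. The 200 had medians of 0.94 in MUT and 0.34 in KO, with 167 differences positive (83.5%), and the 156 had medians of -0.62 in MUT and -0.12 in KO, with 140 negative (89.7%).

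**Figure D2:**
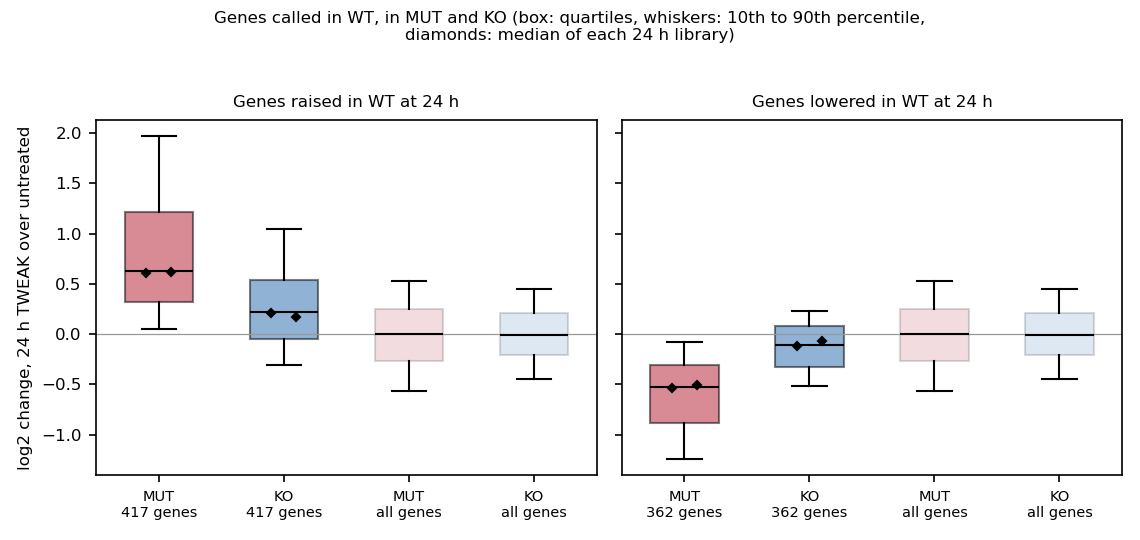
Log2 change at 24 h over untreated cells in MUT and KO for genes raised (left, 417) and lowered (right, 362) in WT, beside all genes tested; boxes give quartiles, whiskers the 10th to 90th percentile, and diamonds the median of each 24 h library. Raised genes have medians of 0.63 in MUT and 0.22 in KO, and lowered genes -0.53 in MUT and -0.11 in KO.

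Among noncanonical NF-kB components, the list whose genes NIK signalling most directly concerns, 10 of 13 genes had a positive difference (51.5% of all genes), 5 at an unadjusted p under 0.05 with a positive sign (3.25% of all genes) and 0 past the adjusted test. The list's median difference was 0.51, beside 0.02 for all genes, with medians of 0.93 in MUT and 0.37 in KO. In MUT 4 of the 13 rose (0.494% of all genes did), and in KO 0 did. Nfkb2, which encodes p100, stood at 288 and 292 CPM in MUT cells at 24 h and 75.0 and 74.6 CPM in untreated MUT cells, against 156 and 127 CPM in KO cells at 24 h and 112 and 86.1 CPM in untreated KO cells. Both MUT libraries at 24 h exceeded every other library of the 8, and the 24 h KO libraries lay above the untreated KO libraries by a smaller margin. The log2 change was 1.95 ± 0.20 in MUT (SE; adjusted p = 7.73e-06 by edgeR) and 0.51 ± 0.20 in KO (adjusted p = 1), and the difference was 1.44 ± 0.28 (adjusted p = 0.207). Relative to WT of the same library set it was 1.61 ± 0.34 (adjusted p = 0.111). In WT, Nfkb2 was at 622, 571, 511 and 421 CPM at 24 h and at 123, 94.3, 95.1 and 95.2 CPM untreated, so MUT cells at 24 h stayed below all 4 WT libraries.

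Relb, which encodes the partner of p52, separated the genotypes less. It stood at 60.7 and 57.3 CPM in MUT cells at 24 h and 14.7 and 16.0 CPM in untreated MUT cells, against 39.8 and 40.5 CPM in KO cells at 24 h and 24.6 and 12.6 CPM in untreated KO cells. The MUT groups and the KO groups were each separate, with the largest spread in untreated KO. Relb rose in MUT by 1.94 ± 0.21 (adjusted p = 1.29e-05 by edgeR), its KO change was 1.06 ± 0.22 (adjusted p = 0.296), and the difference was 0.88 ± 0.30 (adjusted p = 0.498). The WT libraries held 80.4, 99.6, 80.5 and 83.2 CPM at 24 h and 20.6, 21.9, 21.2 and 22.5 CPM untreated.

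Birc3 and Traf3 belong to the complex that restrains NIK. Birc3, which encodes cIAP2, stood at 40.6 and 47.8 CPM in MUT cells at 24 h and 11.9 and 9.16 CPM in untreated MUT cells, against 19.9 and 18.0 CPM in KO cells at 24 h and 11.6 and 12.6 CPM in untreated KO cells. Only the 24 h libraries separated the genotypes, and the untreated ones overlapped. Its log2 change was 2.05 ± 0.23 in MUT (adjusted p = 2.46e-05) and 0.65 ± 0.27 in KO (adjusted p = 1), with a difference of 1.40 ± 0.36 (adjusted p = 0.385; edgeR for all 3). Traf3, which encodes the adaptor that ties NIK to the cIAPs, stood at 84.3 and 75.6 CPM in MUT cells at 24 h and 33.2 and 38.9 CPM in untreated MUT cells, against 41.0 and 40.0 CPM in KO cells at 24 h and 31.0 and 31.5 CPM in untreated KO cells. It rose in MUT by 1.15 ± 0.23 (adjusted p = 0.0161 by edgeR), a call lost when any 1 MUT library was left out. Its difference was 0.78 ± 0.34 (adjusted p = 0.649 by edgeR), or 1.27 relative to WT of the same set. The upstream genes gave small differences: 0.51 ± 0.41 for Chuk, encoding IKK1, -0.42 ± 0.33 for Ikbkb, encoding IKK2, and 0.06 ± 0.69 for Tnfrsf12a, encoding Fn14. Tnfrsf12a stood at 374 and 459 CPM in MUT cells at 24 h and 409 and 365 CPM in untreated MUT cells, against 418 and 312 CPM in KO cells at 24 h and 326 and 382 CPM in untreated KO cells, so all 4 groups overlapped. The differences of Ikbkb and Tnfrsf12a were -0.26 and 0.37 relative to WT of the same set.

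**Figure D3:**
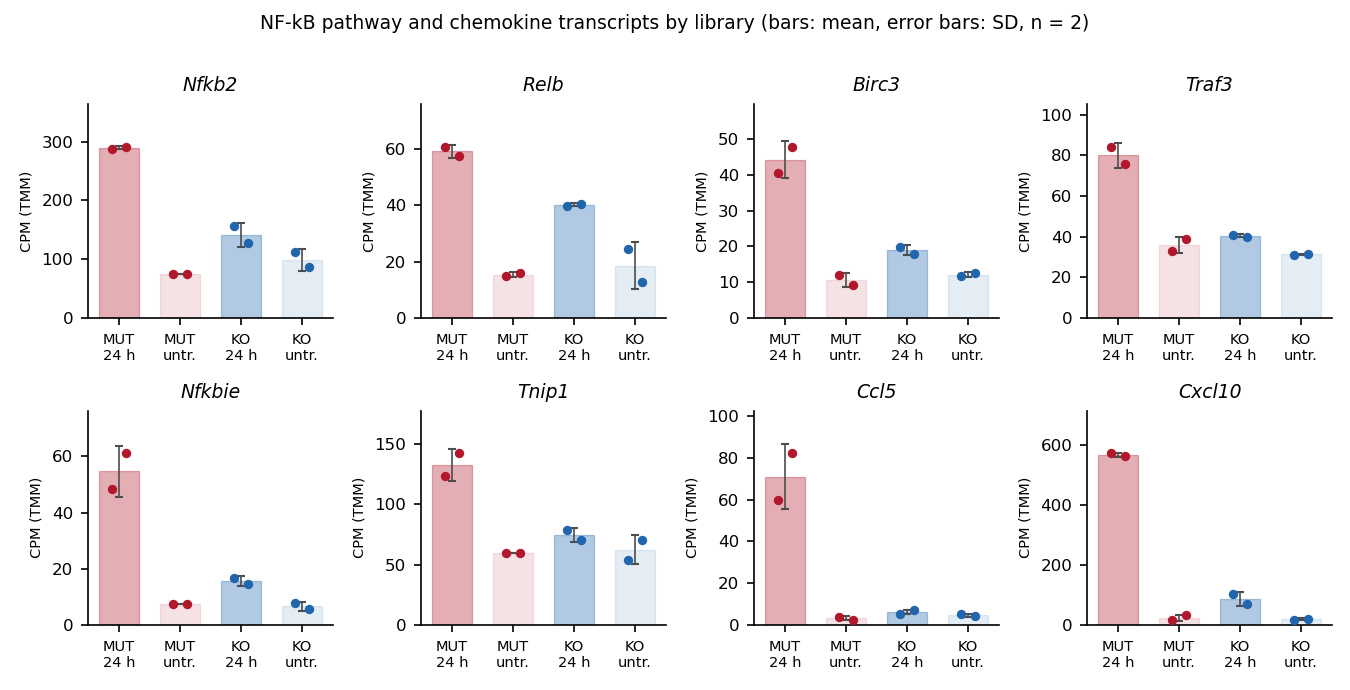
CPM after TMM normalisation in each library (points), with group means (bars) and SD (error bars, n = 2), for MUT at 24 h, untreated MUT (untr.), KO at 24 h and untreated KO, in 8 NF-kB and chemokine genes. In each gene the 2 MUT libraries at 24 h lie above the other 6, for Nfkb2 at 288 and 292 CPM against at most 156 CPM. All 8 genes rose in MUT, so lying above untreated MUT is part of their choice.

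Canonical NF-kB components and feedback inhibitors gave a median difference of 0.30, positive for 13 of 18 genes, with 3 at an unadjusted p under 0.05 and a positive sign (3.25% of all genes) and 0 past the adjusted test. In MUT 5 of the 18 rose (0.494% of all genes did) and in KO 0 did. Nfkbie, which encodes the inhibitor IkB-epsilon, stood at 48.3 and 61.0 CPM in MUT cells at 24 h and 7.48 and 7.52 CPM in untreated MUT cells, against 16.9 and 14.5 CPM in KO cells at 24 h and 7.76 and 5.6 CPM in untreated KO cells. The untreated libraries of both genotypes were alike and each 24 h group lay above them, KO included. Nfkbie rose in MUT by 2.86 ± 0.32 (adjusted p = 2.13e-05), its KO change was 1.18 ± 0.40 (adjusted p = 1), and the difference was 1.68 ± 0.52 (adjusted p = 0.472; edgeR for all 3), or 2.69 relative to WT of the same set. Tnip1, which encodes the A20-binding protein ABIN1, stood at 123 and 142 CPM in MUT cells at 24 h and 59.4 and 59.9 CPM in untreated MUT cells, against 78.4 and 70.5 CPM in KO cells at 24 h and 53.9 and 70.7 CPM in untreated KO cells. The KO groups overlapped and the MUT groups did not, and the difference was 0.89 ± 0.28 (adjusted p = 0.472 by edgeR).

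Not every inhibitor gene followed the same course. Nfkbia, which encodes IkB-alpha, was at 209 and 254 CPM in MUT cells at 24 h and 47.9 and 45.5 CPM in untreated MUT cells, against 135 and 87.5 CPM in KO cells at 24 h and 52.6 and 35.7 CPM in untreated KO cells. Its change was 2.31 in MUT, where it rose (adjusted p = 0.000403 by edgeR), and 1.31 in KO, where it did not pass, and the difference was 1.0 ± 0.46, or 1.69 relative to WT of the same set. Bcl3, which encodes a nuclear IkB protein that binds p52 and p50, was at 79.0 and 104 CPM in MUT cells at 24 h and 28.0 and 29.4 CPM in untreated MUT cells, against 34.4 and 38.0 CPM in KO cells at 24 h and 9.92 and 13.3 CPM in untreated KO cells. It rose in MUT by 1.67 (adjusted p = 0.0445 by edgeR), a call that held in 0 of the 8 fits without a library. The KO change was also 1.67, at a lower level throughout. The difference was 0.0031, or 0.45 ± 0.74 relative to WT of the same set. No SE is given for the first value, because an SE taken from the F statistic is unreliable this near 0. Both genes were chosen after their values were seen.

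Chemokine genes were the list with the highest medians in both genotypes, 1.64 in MUT and 1.29 in KO. Their median difference was 0.53, or 1.28 relative to WT of the same set. Only 9 of 16 were positive (56.2%), with 4 higher and 1 lower at an unadjusted p under 0.05 (3.25% and 3.93% of all genes) and 0 past the adjusted test. In MUT 5 of the 16 rose, beside 0.494% of all genes, and in KO 0 did. Ccl5, which attracts T cells and monocytes, stood at 60.0 and 82.1 CPM in MUT cells at 24 h and 3.97 and 2.62 CPM in untreated MUT cells, against 5.43 and 7.0 CPM in KO cells at 24 h and 5.17 and 4.20 CPM in untreated KO cells. The 2 MUT libraries at 24 h lay far above the other 6, and the KO groups lay close together. Ccl5 rose in MUT by 4.37 ± 0.61 (adjusted p = 0.000353), its KO change was 0.39 ± 0.84 (adjusted p = 1), and the difference was 3.99 ± 1.09 (adjusted p = 0.442; edgeR for all 3).

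Cxcl10 and Cxcl16 had positive changes in both genotypes, larger in MUT. Cxcl10, an interferon-inducible ligand of CXCR3, stood at 571 and 562 CPM in MUT cells at 24 h and 16.1 and 31.7 CPM in untreated MUT cells, against 102 and 71.0 CPM in KO cells at 24 h and 16.4 and 21.0 CPM in untreated KO cells. The 24 h libraries lay above the untreated ones in both genotypes, without overlap. Cxcl10 rose in MUT by 4.58 ± 0.52 (adjusted p = 2.13e-05), its KO change was 2.22 ± 0.52 (adjusted p = 0.554), and the difference was 2.36 ± 0.71 (adjusted p = 0.456; edgeR for all 3), or 1.31 ± 0.87 relative to WT of the same set. Cxcl16, a transmembrane chemokine, stood at 62.1 and 67.5 CPM in MUT cells at 24 h and 9.12 and 6.54 CPM in untreated MUT cells, against 16.9 and 22.5 CPM in KO cells at 24 h and 6.90 and 7.0 CPM in untreated KO cells. It rose in MUT by 3.02 ± 0.27 (adjusted p = 1.79e-06, the smallest of the MUT response), its KO change was 1.5 ± 0.33 (adjusted p = 0.296), and the difference was 1.52 ± 0.44 (adjusted p = 0.456; edgeR for all 3).

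Ccl2, the main monocyte attractant of fibroblasts, was the most abundant of these transcripts and had the smallest adjusted p of the KO response. It stood at 3021.5 and 2230.1 CPM in MUT cells at 24 h and 459.5 and 338 CPM in untreated MUT cells, against 729 and 756 CPM in KO cells at 24 h and 235 and 247 CPM in untreated KO cells. The 4 groups did not overlap, and untreated MUT lay above untreated KO. Ccl2 rose in MUT by 2.72 ± 0.28 (adjusted p = 7.73e-06 by edgeR), and its KO change was 1.63 ± 0.27 (adjusted p = 0.0545). The difference was 1.09 ± 0.37 (adjusted p = 0.498), and relative to WT of the same set it was 2.02 ± 0.37 (adjusted p = 0.0428), 1 of 4 genes past the test in that fit (1 higher, 0.00882% of genes, and 3 lower, 0.0265%). The other chemokines differed in sign. Cxcl5, a neutrophil attractant, stood at 49.4 and 44.4 CPM in MUT cells at 24 h and 39.0 and 37.3 CPM in untreated MUT cells, against 102 and 113 CPM in KO cells at 24 h and 35.8 and 28.7 CPM in untreated KO cells. Its change was 0.30 in MUT and 1.73 in KO, neither past the test, and the difference was -1.43 ± 0.49 (adjusted p = 0.498 by edgeR). Cxcl1, of the same receptor family, was at 20.8 and 21.4 CPM in MUT at 24 h and 8.41 and 9.81 CPM in untreated MUT, against 18.7 and 15.5 CPM in KO at 24 h and 3.02 and 2.80 CPM in untreated KO. Its difference of -1.30 ± 0.70 became 0.72 relative to WT of the same set. Ccl2, Cxcl5, Cxcl1 and Cxcl10 were chosen after their values were seen.

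Adhesion and survival genes gave few members with a response. Icam1, which encodes the leukocyte integrin ligand ICAM-1, stood at 70.9 and 66.5 CPM in MUT cells at 24 h and 23.1 and 18.7 CPM in untreated MUT cells, against 27.1 and 23.5 CPM in KO cells at 24 h and 22.9 and 12.6 CPM in untreated KO cells. It rose in MUT by 1.71 ± 0.34 (adjusted p = 0.0165 by edgeR), a call lost when any 1 MUT library was left out. The difference was 1.24 ± 0.52 (adjusted p = 0.618 by edgeR). Vcam1, which encodes VCAM-1, had a difference of 0.81 ± 0.39, and its rise of 1.18 in MUT passed in none of the 8 fits without a library. Those were the 2 of 11 adhesion genes that rose in MUT (0.494% of all genes did), where 6 of 11 differences were positive and the median was 0.27. Traf1, an adaptor that binds TRAF2 and is a known NF-kB target, had 11 and 21 UMIs in MUT cells at 24 h and 1 and 1 UMI in untreated MUT cells, against 1 and 1 UMI in KO cells at 24 h and 1 and 2 UMIs in untreated KO cells. The ratio of pooled Traf1 UMIs per library total was 20.2 for MUT at 24 h over untreated MUT (95% exact interval 5.15 to 174) and 0.677 for KO at 24 h over untreated KO (0.0566 to 5.91), counting error only. Across the 11 survival genes the median difference was 0.19, or 0.49 relative to WT of the same set, and 8 were positive.

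MHC class I presentation and interferon-stimulated genes had positive medians in both genotypes. The 18 MHC class I genes had medians of 1.05 in MUT and 0.68 in KO and a median difference of 0.30, positive for 13. In MUT 3 of the 18 rose (0.494% of all genes did) and in KO 0 did. Tapbp, which encodes tapasin of the peptide-loading complex, stood at 411 and 467 CPM in MUT cells at 24 h and 124 and 127 CPM in untreated MUT cells, against 313 and 276 CPM in KO cells at 24 h and 148 and 203 CPM in untreated KO cells. It rose in MUT by 1.81 ± 0.24 (adjusted p = 0.000204), its KO change was 0.75 ± 0.24 (adjusted p = 1), and the difference was 1.06 ± 0.33 (adjusted p = 0.472; edgeR for all 3). Psmb10, an immunoproteasome subunit, had a difference of 1.16 ± 0.40, with a rise of 1.51 in MUT and a KO change of 0.35. The 41 interferon-stimulated genes had medians of 1.01 in MUT and 0.82 in KO, and 29 had a positive difference with a median of 0.18. Relative to WT of the same set that median was -0.21, so its sign depended on the set. Parp14, an ADP-ribosyltransferase of this list, had a difference of 1.04 ± 0.51, whereas Iigp1, an interferon-inducible GTPase, had one of -2.80 ± 1.17. Iigp1 stood at 9.53 and 12.9 CPM in MUT at 24 h and 3.51 and 4.25 CPM in untreated MUT, against 16.3 and 8.0 CPM in KO at 24 h and 0 and 1.40 CPM in untreated KO, where the untreated KO libraries held 2 UMIs in all. Of the 12 IRF and STAT genes 8 were positive, with a median of 0.14, or -0.02 relative to WT of the same set. Irf1, a transcription factor induced by interferon and NF-kB, rose in MUT by 1.59 ± 0.29 (adjusted p = 0.00864 by edgeR). That call was lost when any 1 MUT library was left out. Irf1 had a KO change of 0.66 ± 0.30 and a difference of 0.93 ± 0.42.

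Secreted proteases and growth factors had differences of both signs. The list of 16 cytokines and growth factors had a median difference of 0.09 (-0.30 relative to WT of the same set). Its largest difference was 0.73, and Vegfc, described below, is not in that list. Mmp9, which encodes the gelatinase MMP-9, stood at 325 and 358 CPM in MUT cells at 24 h and 11.9 and 11.1 CPM in untreated MUT cells, against 5.43 and 19.5 CPM in KO cells at 24 h and 12.1 and 4.90 CPM in untreated KO cells. The 2 MUT libraries at 24 h lay far above the other 6, and the KO groups overlapped. Mmp9 rose in MUT by 4.88 ± 0.91 (adjusted p = 0.0109 by edgeR). That call was lost without MUT replicate 2 at 24 h, and without either untreated MUT library. The KO change of Mmp9 was 0.50 ± 1.11, and the difference was 4.38 ± 1.44 (adjusted p = 0.478 by edgeR). Mmp3, which encodes stromelysin-1, stood at 15.2 and 10.9 CPM in MUT at 24 h and 2.34 and 1.31 CPM in untreated MUT, against 4.82 and 4.0 CPM in KO at 24 h and 3.02 and 3.5 CPM in untreated KO, with a difference of 2.31 ± 1.0. Mmp2, which encodes the other gelatinase, had a negative difference and stood at 207 and 259 CPM in MUT at 24 h and 333 and 374 CPM in untreated MUT, against 535 and 563 CPM in KO at 24 h and 455 and 259 CPM in untreated KO. Its difference was -1.21 ± 0.43 (adjusted p = 0.519 by edgeR), and the whole list of 23 proteases and inhibitors had a median of -0.09. Vegfc, which encodes the lymphatic growth factor VEGF-C, stood at 71.6 and 69.9 CPM in MUT cells at 24 h and 18.0 and 18.0 CPM in untreated MUT cells, against 31.3 and 27.0 CPM in KO cells at 24 h and 21.6 and 25.9 CPM in untreated KO cells. Vegfc rose in MUT by 1.97 ± 0.27 (adjusted p = 0.000275), its KO change was 0.31 ± 0.30 (adjusted p = 1), and the difference was 1.67 ± 0.40 (adjusted p = 0.297; edgeR for all 3), or 1.03 relative to WT of the same set. Fgf7, a keratinocyte growth factor, had a difference of -1.11 ± 0.41 (-0.70 relative to WT of the same set), with a change of -0.21 in MUT and 0.90 in KO, neither past the test. Complement C3 had one of 2.54 ± 1.11 (3.96 relative to WT of the same set) and rose in MUT by 3.41 (adjusted p = 0.0282 by edgeR). The call of C3 was lost when any 1 MUT library was left out.

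Among negative differences, Nab2, a corepressor of EGR transcription factors, and Gm13835 shared the smallest adjusted p. Nab2 stood at 59.6 and 65.5 CPM in MUT cells at 24 h and 155 and 161 CPM in untreated MUT cells, against 191 and 149 CPM in KO cells at 24 h and 142 and 102 CPM in untreated KO cells. The 2 MUT libraries at 24 h were the lowest of the 8, and the KO libraries at 24 h were both above both untreated KO libraries. Nab2 fell in MUT by 1.33 on the log2 scale (SE 0.26, adjusted p = 0.0122 by edgeR). That call was lost when any 1 MUT library was left out. The KO change of Nab2 was 0.47 ± 0.25 (adjusted p = 1 by edgeR), and the difference was -1.80 ± 0.36 (adjusted p = 0.207 by edgeR). Relative to WT of the same set the difference was -2.55 ± 0.41 (adjusted p = 0.0361). In WT, Nab2 stood at 77.4, 71.0, 84.0 and 98.5 CPM at 24 h and 205, 161, 134 and 131 CPM untreated. Gm13835 reached the same adjusted p with a difference of -3.82 ± 0.73, from 2.47 and 4.41 CPM in MUT at 24 h and 20.8 and 18.3 CPM in untreated MUT, against 13.3 and 38.5 CPM in KO at 24 h and 12.5 and 7.70 CPM in untreated KO. Its KO libraries at 24 h were unequal, and a pseudogene model can share reads with its parent gene, so its value is uncertain.

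Acot11, Tnrc18 and Mgll also fell in MUT, with KO changes of 0.14, 0.19 and -0.28. Acot11, an acyl-CoA thioesterase, stood at 2.47 and 3.39 CPM in MUT at 24 h and 12.9 and 14.7 CPM in untreated MUT, against 11.5 and 8.50 CPM in KO at 24 h and 9.49 and 8.40 CPM in untreated KO. Its difference was -2.35 ± 0.49 (adjusted p = 0.244 by edgeR), with a change of -2.21 in MUT and 0.14 in KO. Tnrc18, a nuclear protein gene, stood at 11.6 and 14.2 CPM in MUT at 24 h and 33.4 and 36.0 CPM in untreated MUT, against 42.2 and 51.0 CPM in KO at 24 h and 47.0 and 34.3 CPM in untreated KO, a difference of -1.60 ± 0.34 (adjusted p = 0.244). Mgll, which encodes monoacylglycerol lipase, stood at 20.5 and 19.0 CPM in MUT at 24 h and 70.4 and 71.0 CPM in untreated MUT, against 54.9 and 42.0 CPM in KO at 24 h and 71.6 and 44.1 CPM in untreated KO, a difference of -1.56 ± 0.52 (adjusted p = 0.478), or -2.47 relative to WT of the same set. The MUT call of Acot11 was lost without MUT replicate 1 at 24 h. That of Tnrc18 was lost without either MUT library at 24 h, and without untreated MUT replicate 2. That of Mgll was lost when any 1 MUT library was left out. In each of these 3 genes the 2 MUT libraries at 24 h were the lowest of the 8. The 3 genes were named as falling in MUT, so lying below untreated MUT is no separate result. Slc7a5, a transporter of large neutral amino acids, and Pcbp4, an RNA-binding protein gene, had differences of -1.5 ± 0.48 and -1.43 ± 0.47 (adjusted p = 0.478 for both by edgeR). Neither passed in MUT, at changes of -1.35 and -0.98 (adjusted p = 0.0772 and 0.263 by edgeR), and their KO changes were 0.16 and 0.45. They passed relative to WT of the same set, at -2.52 ± 0.44 and -2.84 ± 0.49 (adjusted p = 0.0381 for both by edgeR). Those values also rest on WT libraries, which at 24 h ranged from 27.5 to 72.2 CPM for Slc7a5 and from 102 to 203 CPM for Pcbp4. Gm13835, Nab2, Acot11, Tnrc18, Mgll, Slc7a5, Pcbp4, Vegfc and Mmp3 were chosen after their values were seen.

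**Figure D4:**
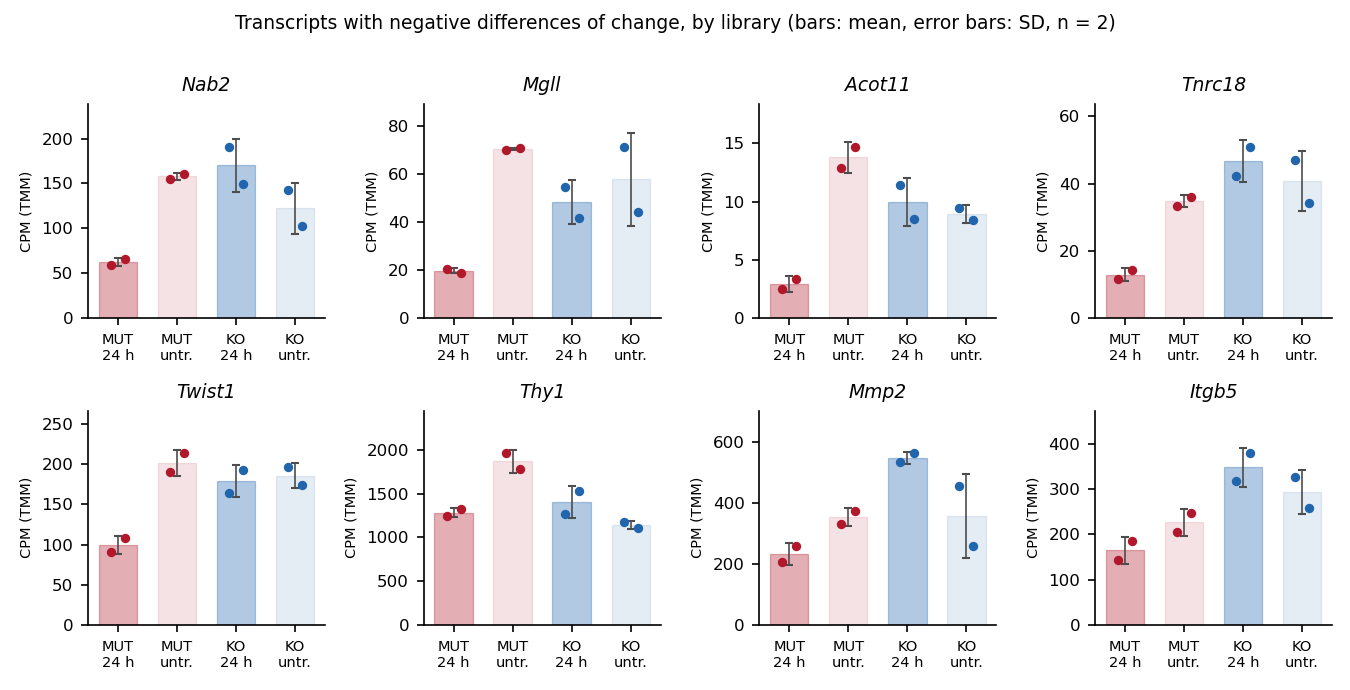
CPM after TMM normalisation in each library (points), with group means (bars) and SD (error bars, n = 2), for MUT at 24 h, untreated MUT (untr.), KO at 24 h and untreated KO, in 8 genes with a negative difference of changes. For Nab2, Mgll, Acot11, Tnrc18, Twist1 and Itgb5 the 2 MUT libraries at 24 h lie below the other 6. For Thy1 and Mmp2 the groups overlap. Nab2, Mgll, Acot11, Tnrc18 and Twist1 fell in MUT, so lying below untreated MUT is part of their choice.

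Fibroblast identity and matrix genes had negative median differences, with 0 members past the test of the difference. At 24 h the median of MUT over KO was -0.01 for dermal fibroblast markers, 0.04 for collagens and matrix proteins and 0.21 for contractile genes. Between untreated cells those medians were 0.38, 0.25 and 0.55. For Wnt genes they were -0.19 at 24 h and 0.27 untreated, and for developmental transcription factors -0.12 and -0.02. Of 19 dermal fibroblast markers 4 had a positive difference (21.1%, against 51.5% of all genes). Their median difference was -0.42 (-0.23 relative to WT of the same set), with medians of -0.11 in MUT and 0.19 in KO. Thy1, which encodes the surface glycoprotein CD90, stood at 1245 and 1319.9 CPM in MUT cells at 24 h and 1958 and 1776 CPM in untreated MUT cells, against 1271 and 1534 CPM in KO cells at 24 h and 1170.4 and 1105 CPM in untreated KO cells. At 24 h the genotypes overlapped, and the untreated MUT libraries were the highest of the 8. Its difference was -0.84 ± 0.31 (adjusted p = 0.550 by edgeR). Cd34, a surface marker of dermal fibroblasts, had a difference of 1.99 ± 0.82. Twist1, a mesenchymal transcription factor, stood at 91.4 and 108 CPM in MUT at 24 h and 190.0 and 213 CPM in untreated MUT, against 165 and 193 CPM in KO at 24 h and 197 and 174 CPM in untreated KO. Of 24 developmental transcription factors 1 fell in MUT, where 0.194% of all genes did. It was Twist1, which fell by 1.02 on the log2 scale (adjusted p = 0.0348 by edgeR). That call was lost when any 1 MUT library was left out, and the difference of Twist1 was -0.96 ± 0.32. The medians of the difference were -0.22 for developmental transcription factors (10 of 24 positive), -0.29 for 36 collagens and matrix proteins (9 positive), -0.37 for 26 contractile and TGF-beta-induced genes (7 positive) and -0.37 for 17 Wnt ligands and regulators (2 positive). Relative to WT of the same set these 4 medians were -0.13, -0.30, -0.31 and -0.64. Col12a1, Lmod1, Itgb5 and Lgr5, each among the 2 members of its list with the smallest unadjusted p, had differences of -0.70 ± 0.35, -2.06 ± 0.80, -0.70 ± 0.28 and -2.37 ± 1.15. They were -0.11 for Col12a1, -0.98 for Lmod1 and -3.64 for Lgr5 relative to WT of the same set.

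Cell cycle genes had 34 of 45 positive differences and a median of 0.45 (0.77 relative to WT of the same set), with 0 at an unadjusted p under 0.05. Top2a, which encodes topoisomerase II alpha, stood at 236 and 239 CPM in MUT at 24 h and 139 and 113 CPM in untreated MUT, against 36.8 and 34.0 CPM in KO at 24 h and 32.3 and 49.0 CPM in untreated KO. The genotypes were thus already apart before TWEAK, and its difference of changes was 1.09 ± 0.91 (adjusted p = 0.866 by edgeR), or 1.66 relative to WT of the same set. E2f1, a transcription factor of S phase entry, had the smallest unadjusted p of the list, with a difference of 0.60 ± 0.30. Immediate-early genes had a median of -0.17 with 10 of 23 positive, but 0.20 relative to WT of the same set. Junb, of the AP-1 family, rose in MUT by 1.22 ± 0.25 (adjusted p = 0.0170 by edgeR) and had a difference of 1.02 ± 0.35. The call of Junb was lost when any 1 MUT library was left out. The p53 targets had a median of 0.08, with Btg2, an antiproliferative gene, at -1.03 ± 0.44. Medians of the other lists of pathways were between -0.16 and 0.28, where relative to WT of the same set cytokines and growth factors turned to -0.30 and mitochondrially encoded genes to -0.61. The 6 marker lists of other cell types, with 2 to 6 genes tested each, had medians between -0.62 and 0.44. Relative to WT of the same set, leukocyte markers turned from -0.62 to 0.10 and adipocyte markers from 0.21 to -0.15. Melanocyte and Schwann cell markers turned from -0.04 to 0.35. Among glycolysis and hypoxia genes Egln1, an oxygen sensor, was at 0.66 ± 0.27. The plot of list medians sets the lists side by side.

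**Figure D5:**
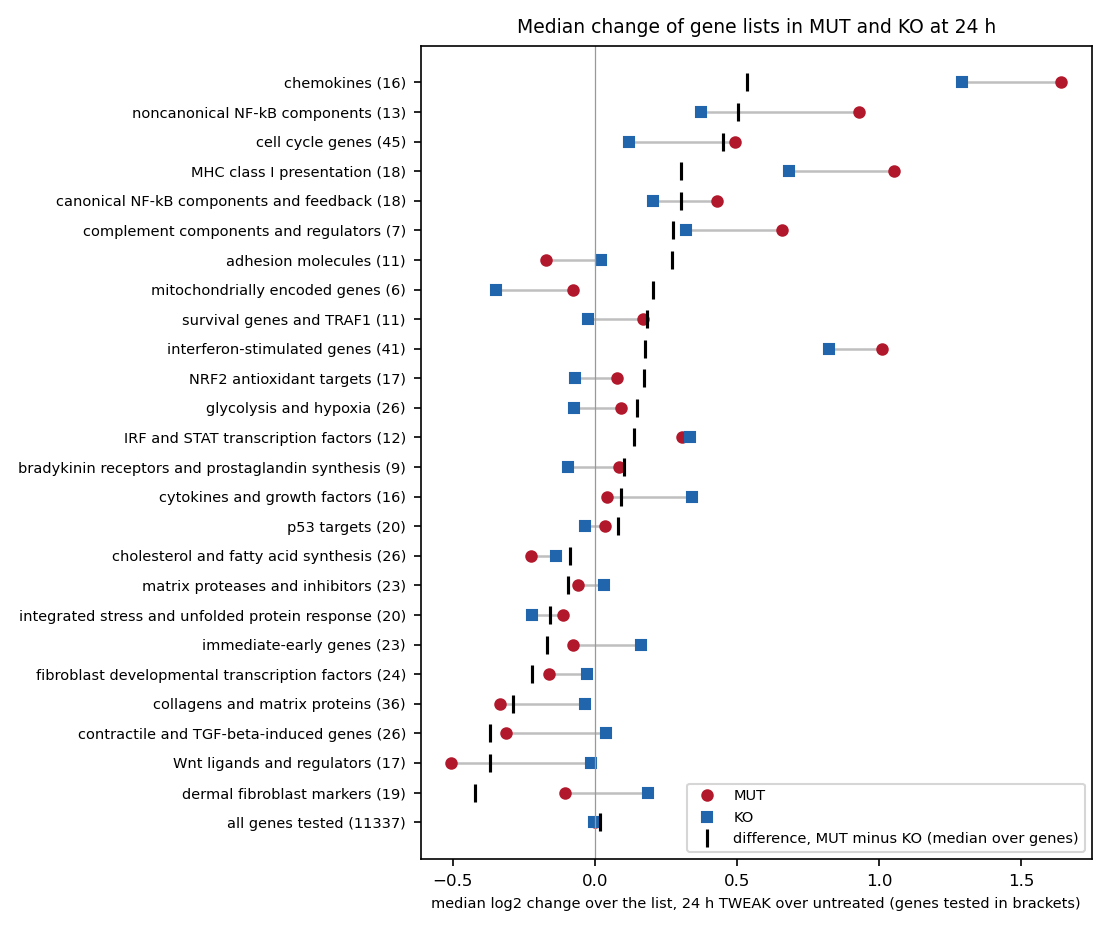
Median log2 change at 24 h over untreated cells in MUT (circles) and KO (squares) over the tested genes of each list, with the median of the gene-wise difference of changes as a bar; the number of genes tested is in brackets. Chemokines (1.64 in MUT, 1.29 in KO) and noncanonical NF-kB components (0.93 in MUT, 0.37 in KO) lie at the top. Dermal fibroblast markers (median difference -0.42) are the lowest of the lists, just above the row of all genes tested.

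The treated libraries were also compared directly. At 24 h 234 genes were higher (2.06%) and 204 lower (1.80%) in MUT than in KO, whereas between untreated cells 1 gene was higher (0.00882%), Map3k14, and 0 were lower, by edgeR (1482 at an unadjusted p under 0.05, and 13 and 10 genes by DESeq2). With the 8 libraries fitted alone the counts were 1034 and 1035 at 24 h and 544 and 391 between untreated cells. Of the 234 higher genes 227 had a positive difference of changes, and of the 204 lower genes 203 had a negative one, but these share the 24 h libraries with the difference, so the signs are a description. Of the same genes, 206 of 234 and 158 of 204 had the same sign in untreated cells, where 7527 of 11337 genes did, so these genes included many with a gap of the same sign before TWEAK. Of the 45 cell cycle genes tested 17 were among the 234, where 2.06% of all genes were. Nfkb2 was higher in MUT at 24 h by 1.03 ± 0.20 (adjusted p = 0.0122), Birc3 by 1.22 ± 0.24 (adjusted p = 0.0132), Ccl5 by 3.49 ± 0.62 (adjusted p = 0.00936) and Ccl2 by 1.82 ± 0.27 (adjusted p = 0.00240), all by edgeR, while Relb, at 0.55 ± 0.20, did not pass (adjusted p = 0.106). The calls of Nfkb2 and Birc3 were lost when any 1 MUT or KO library at 24 h was left out. That of Ccl5 was lost without MUT replicate 2 at 24 h and without either KO library at 24 h. That of Ccl2 was lost without either KO library at 24 h. Relative to WT of the same set the counts were 31 higher and 23 lower (0.273% and 0.203%), which included 21 of the 234 and 13 of the 204. The 234 and 204 rested on the 24 h libraries in particular: they were 9 and 2, or 6 and 1, without MUT replicate 1 or 2, and 3 and 3, or 2 and 2, without KO replicate 1 or 2. Without untreated MUT replicate 1 or 2, which only add to the estimate of spread, they were 134 and 129, or 130 and 127.

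At the earlier time, 6 h in the sample titles but 3 h in the library names, a conflict the labels do not settle, the same untreated libraries serve as the baseline. There the difference of changes was 1.02 ± 0.28 for Nfkb2, 1.42 ± 0.30 for Relb, 0.92 ± 0.36 for Birc3, 2.1 ± 1.04 for Ccl5 and -0.58 ± 0.36 for Nab2, and 0 of 11337 genes passed in either direction (0%; smallest adjusted p = 0.455, 578 genes at an unadjusted p under 0.05 by edgeR). The values at 24 h were 1.44, 0.88, 1.40, 3.99 and -1.80 for the same genes. Whether they differ between the times was not tested.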

How the data were processed

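Bulk MARS-seq libraries were made from 50 ng of total RNA each, extracted with either of 2 kits, per the labels' protocols, which do not say which kit served which sample. MARS-seq tags the 3′ end of each transcript with a molecular barcode (UMI). The deposited table holds raw UMI counts per gene that the authors had not normalised, and GRCm38, HTSeq, DESeq2, STAR 2.7.10a and cutadapt appear in the submitters' processing notes. Every gene in it reaches at least 6 counts in some library. A further 48 columns of per-sample values were not used. How UMIs were collapsed and strand handled is not given in the sources used here.

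One edgeR 4.0.16 model in R 4.3.3 took the counts of all 24 libraries, with genotype and time combined into 9 groups. filterByExpr by group kept 11337 of 13479 genes and left out 2142. TMM normalisation, glmQLFit and glmQLFTest followed, with p-values Benjamini-Hochberg adjusted over all genes tested and a threshold of 0.05. Each SE was taken as the absolute log2 value over the root of its F statistic. Alternatives were DESeq2 1.42.0, 2 other normalisations, no filter, the 8 MUT and KO libraries alone, a replicate block, WT libraries of the same set as baseline, each library left out, a correction for transcript GC, and WT libraries fitted alone. The script was tested on simulated counts.

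Library totals of 1379946 to 4342981 UMIs set the precision. A count of 0 allows up to 3 counts, or 0.691 to 2.17 CPM in these 8 libraries, and intervals cover counting error only. Replicates of a group were not duplicates, with a chi-square of 3.85 to 6.83 per degree of freedom. Equal replicate numbers were not shown to pair libraries: deviations of the 24 h and untreated libraries of the same number correlated at 0.0710 in MUT and -0.134 in KO across 7289 genes. That is 1 value per genotype from 2 libraries a group, so it cannot exclude a pairing.

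The comparison, the 31 gene lists and the alternatives were chosen with earlier results of these data known. The rule named 6 pathway genes in any case (Nfkb2, Relb, Map3k14, Tnfrsf12a, Ikbkb, Chuk), then the largest differences and list members past the test, of which there were none. Where no member of a list passed, up to 2 with the smallest unadjusted p were named. Others are marked in the text as chosen after their values were seen. Promoter windows are from RefSeq on GRCm38.p6, which held a window for only 8792 of the 11337 genes, so shares with a match were not tested between gene groups.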

Additional observations from a re-analysis of the deposited data

Results flagged for a closer look

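In groups of 4 WT libraries, 5 values lay further from the nearest other library than Dixon's 95% limit allows, among 34 groups examined for the 17 genes whose WT levels were examined, where chance flags about 1 in 20 groups. Nfkb2 was at 123 CPM (122.95) in untreated WT replicate 1, above the other 3 at 94.3 to 95.2 CPM. Relb was at 99.6 CPM (99.555) in WT replicate 2 at 24 h, above the other 3 at 80.4 to 83.2 CPM. Tnfrsf12a was at 793 CPM (793.35) in WT replicate 1 at 24 h, above 374 to 425 CPM in the other 3. Cxcl10 was at 18.0 CPM (18.008) in untreated WT replicate 4, below 31.0 to 33.1 CPM in the other 3. Gapdh was at 261 CPM (260.56) in WT replicate 2 at 24 h, above 8.76 to 13.5 CPM in the other 3. None of these libraries enters the difference between MUT and KO except through the shared estimate of the spread and the fits relative to WT.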

How the results depend on the processing

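Of 971 refits of the 54 differences of changes named, 905 kept their sign and side of the threshold, 52 gained significance with the same sign and 14 changed sign. Nfkb2 stayed between 1.24 and 1.61 in 18 alternatives and passed in 6 (adjusted p = 0.00150 to 0.791), and Nab2 also passed in 6. Sign changes occurred for Tnfrsf12a, between -0.14 and 0.28 with a library left out, for Bcl3, between -0.21 and 0.23 with a library left out, -0.014 with upper-quartile normalisation, -0.0046 with 8 libraries, -0.0048 with the replicate block and -0.019 with crossed numbers, and for Cxcl1, 0.72 relative to WT of the same set and 0.67 with the block added. The cause was not tested.

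The counts below are of genes higher and lower, in the order difference of changes, MUT at 24 h over untreated, KO at 24 h over untreated, MUT over KO at 24 h and MUT over KO untreated. DESeq2 gave 3 and 2, 80 and 41, 3 and 0, 369 and 336, and 13 and 10. The 8 libraries alone gave 8 and 8, 257 and 210, 7 and 0, 1034 and 1035, and 544 and 391. Relative to WT of the same set the counts were 1 and 3, 0 and 0, 45 and 65, 31 and 23, and 2 and 1, where the MUT and KO entries measure a change beyond that of WT. With 1 library left out they were 0 and 0 to 1, 14 to 51 and 1 to 23, 0 to 1 and 0 to 1, 2 to 195 and 1 to 208, and 1 and 0 to 1. Without the filter 1 gene was higher in KO at 24 h. The GC correction, added after seeing the data, gave 1 and 0 for the difference and 1 and 0 for KO. WT libraries fitted alone, also added then, gave 200 and 156 genes for WT at 24 h, against 417 and 362.

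The replicate block gave 4 and 3 for the difference, 190 and 165 in MUT and 4 and 0 in KO, and the equal numbers were not shown to pair libraries. Crossing the KO numbers gave 21 and 66, 252 and 229, and 4 and 0, and the block with WT sets 17 and 15, 4 and 6, and 138 and 118, both added after seeing the data. MUT over KO within a time cannot be fitted with the block. Of 33 named calls in MUT at 24 h, 12 held without any 1 library, and of 27 named calls between MUT and KO at 24 h, 2 did. Depth limits genes near 0, such as Iigp1 at 0 and 1.40 CPM in untreated KO.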

Other observations

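Gapdh, a glycolytic enzyme often used as a constant reference transcript, had the largest difference of changes of its list, 6.19 ± 1.92 on the log2 scale (adjusted p = 0.472 by edgeR), and single libraries carried it. It stood at 12.7 and 193 CPM in MUT cells at 24 h and 18.7 and 12.1 CPM in untreated MUT cells, against 19.9 and 13.5 CPM in KO cells at 24 h and 348 and 12.6 CPM in untreated KO cells. MUT replicate 2 at 24 h and untreated KO replicate 1 lay far above the other 6, and WT replicate 2 at 24 h stood out in the same way. The gene has many near-identical pseudogene copies, among which the authors' counting could split reads. Whether this bears on the unequal libraries was not tested.

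The median difference of changes was lower among genes of higher GC content. Over 5 equal bins of genes, from the lowest to the highest GC share, it was 0.08, 0.07, 0.04, 0.0017 and -0.12, and relative to WT of the same set it was 0.14, 0.14, 0.07, -0.02 and -0.25. The GC content was known for 98.8% of the genes tested.

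Serpina3g, a serine protease inhibitor gene, and Il2rg, which encodes the common gamma chain of cytokine receptors, rose in MUT cells among immune-related genes outside the lists described. Serpina3g stood at 199 and 225 CPM in MUT cells at 24 h and 10.5 and 10.8 CPM in untreated MUT cells, against 21.7 and 20.5 CPM in KO cells at 24 h and 6.47 and 6.30 CPM in untreated KO cells. It rose in MUT by 4.31 ± 0.54 (adjusted p = 0.000105), its KO change was 1.71 ± 0.67 (adjusted p = 1), and the difference was 2.60 ± 0.89 (adjusted p = 0.498; edgeR for all 3), or 4.6 relative to WT of the same set. Il2rg stood at 94.2 and 70.2 CPM in MUT at 24 h and 14.0 and 7.52 CPM in untreated MUT, against 28.9 and 22.5 CPM in KO at 24 h and 15.1 and 11.2 CPM in untreated KO, with a difference of 1.96 ± 0.74. The 2 MUT libraries at 24 h were the highest of the 8 for both genes, which were chosen after their values were seen.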
